A study of Homo sapiens with 6 samples.

Results

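The BMP and ID genes described here are 10 genes, taken by symbol from a table of 57773 Ensembl gene IDs: the ligands BMP2 and BMP4, the receptors BMPR1A and BMPR2, the signal transducer SMAD5, the inhibitor SMAD6, and ID1, ID2, ID3 and ID4. Each of the 10 matched a single ID. The rule names genes and uses no measured value, but it was written with earlier results of these data known. RPE1 is an immortalised human line derived from retinal pigment epithelium. The series holds 6 RNA-seq libraries of these cells, 3 from cells given the vehicle DMSO and 3 from cells given 2.5 µM Nutlin-3, each for 24 h in medium with fetal bovine serum. Nutlin-3 is a small molecule that keeps the ubiquitin ligase MDM2 from binding p53, and the comparison asks which transcripts differ when p53 is released from MDM2 in these cells. Triplicates are named in the labels without saying whether they were separate cultures, so each p-value speaks only of the scatter among these libraries, which may be technical.

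Bone morphogenetic proteins (BMPs) are secreted ligands of the TGF-β family. A BMP dimer brings together type II receptors such as BMPR2 and type I receptors such as BMPR1A, and the type I kinase then phosphorylates SMAD1, SMAD5 and SMAD9, which enter the nucleus with SMAD4. ID1, ID2 and ID3 are classical direct targets of these SMADs. ID proteins lack a DNA-binding region and hold E proteins and other basic helix-loop-helix factors away from DNA. SMAD6, itself induced by BMP signalling, blocks the receptor and SMAD step and closes a feedback loop. In the eye, BMP signalling takes part in the specification of the retinal pigment epithelium.

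The level of a gene was given by the authors as RPKM, reads per kilobase of gene and 1 M reads. Their kilobase counts the whole gene span, introns included, so a long gene such as BMPR2 has a low RPKM for its reads. Each gene was compared between the groups by limma on log2(RPKM + 0.1), and a gene was called where the p adjusted by the Benjamini-Hochberg method over 19886 tested genes was under 0.05. Whole reads recovered from the RPKM were tested in parallel with limma voom. These reads came to between 29.7 and 42.8 M per library.

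Nutlin-3 changed 4 of the 9 BMP and ID genes that could be tested. BMP2 and BMPR2 rose, SMAD6 and ID2 fell, and BMP4, BMPR1A, SMAD5, ID1 and ID3 did not pass. The 2 largest changes were in a ligand and in the feedback inhibitor: mean RPKM of BMP2 was 1.86 times its DMSO level and that of SMAD6 was 54.6% of it. Among all tested genes 39.2% were called, 20.9% as rising and 18.4% as falling, so 4 of 9 is a share near the background. The median log2 fold change of the 9 was -0.01, against 0.01 over all genes tested. In bulk RNA, fewer cells that express a gene and less RNA per cell cannot be told apart.

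**Figure D1:**
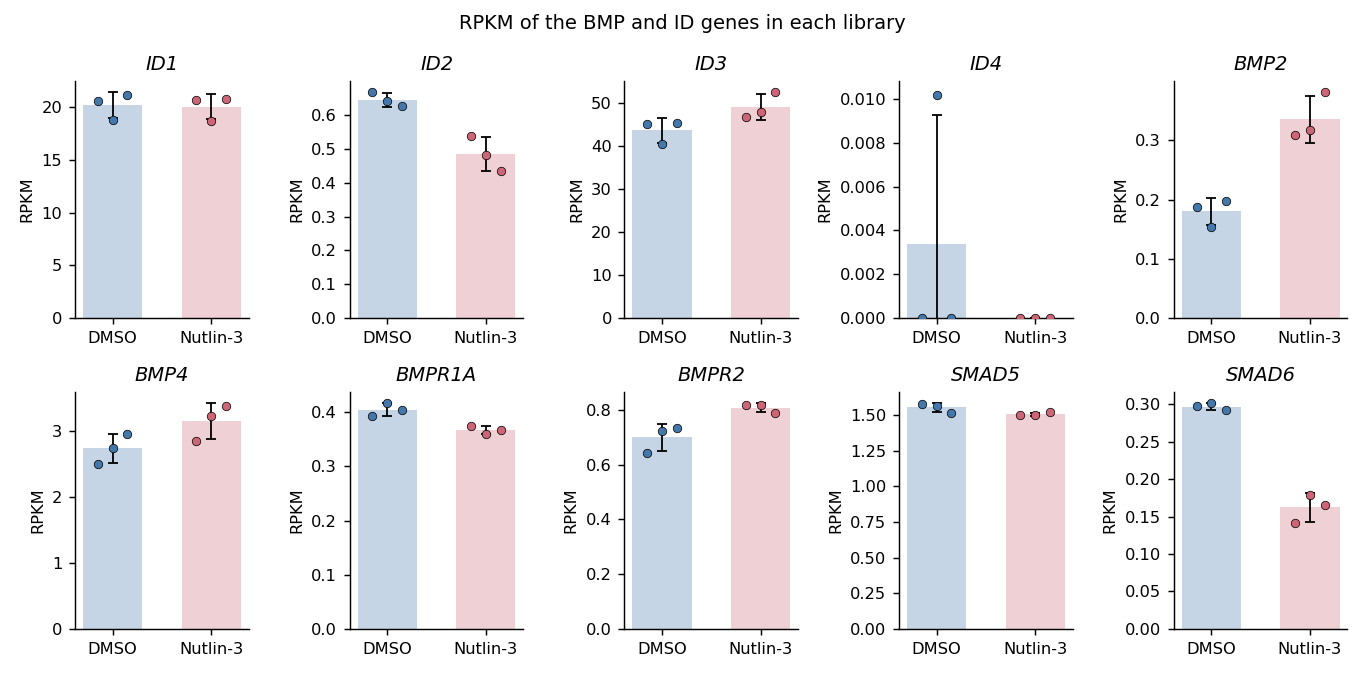
RPKM of each of the 10 genes (vertical axis, linear, its own scale in each panel) in the 3 DMSO and the 3 Nutlin-3 libraries. Points are libraries, bars are group means and error bars are SD with n = 3. The groups are apart in 6 panels, with BMP2, BMPR2 and ID3 higher and SMAD6, ID2 and BMPR1A lower after Nutlin-3. They were also apart in 53.3% of all tested genes. ID4 has 1 library above 0.

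The promoters of ID1, ID2, ID3 and SMAD6 are shown because these are the members best known as direct targets of BMP SMADs, and they did not move alike. Each run is the 250 bases before the RefSeq transcription start on GRCh38.p14, written 5′ to 3′ on the strand of the gene. Capitals mark the SMAD box, the 4 letters GTCT or, on the other strand, AGAC. The positions are chr20:31605039-31605288 on the plus strand for ID1, chr2:8681806-8682055 on the plus strand for ID2, chr1:23559502-23559751 on the minus strand for ID3 and chr15:66701986-66702235 on the plus strand for SMAD6.
ID1: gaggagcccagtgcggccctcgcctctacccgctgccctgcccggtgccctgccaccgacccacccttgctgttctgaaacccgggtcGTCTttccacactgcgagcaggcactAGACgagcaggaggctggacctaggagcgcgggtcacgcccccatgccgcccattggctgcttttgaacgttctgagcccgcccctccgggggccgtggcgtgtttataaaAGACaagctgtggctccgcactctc
ID2: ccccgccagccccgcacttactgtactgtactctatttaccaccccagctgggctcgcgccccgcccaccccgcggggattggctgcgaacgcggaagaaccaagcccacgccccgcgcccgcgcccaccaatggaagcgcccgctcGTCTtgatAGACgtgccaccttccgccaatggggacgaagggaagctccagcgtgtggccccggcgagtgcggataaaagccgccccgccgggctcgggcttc
ID3: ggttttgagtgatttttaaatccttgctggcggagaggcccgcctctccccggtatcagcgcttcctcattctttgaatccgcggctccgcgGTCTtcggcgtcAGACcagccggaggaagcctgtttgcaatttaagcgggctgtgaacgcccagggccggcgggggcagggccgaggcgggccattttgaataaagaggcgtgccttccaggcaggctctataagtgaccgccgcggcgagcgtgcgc
SMAD6: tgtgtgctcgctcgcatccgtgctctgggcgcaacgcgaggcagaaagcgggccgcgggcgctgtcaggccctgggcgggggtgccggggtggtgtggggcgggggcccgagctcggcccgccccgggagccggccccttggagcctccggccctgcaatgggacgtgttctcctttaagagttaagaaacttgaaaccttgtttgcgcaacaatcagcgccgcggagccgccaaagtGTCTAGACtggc

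The SMAD box is short, and 77.5% of 35116 promoters of the same length held at least 1, with a median of 1. ID1 held 3, beginning 162, 136 and 25 bases before the start. ID2 held 2, at 103 and 95 bases, and ID3 held 2, at 158 and 146 bases. In SMAD6 the 2 boxes, at 12 and 8 bases, touch and form the palindrome GTCTAGAC, which 64 of the 35116 promoters held (0.182%). Any given word of 8 letters is rare in windows of this length, so the low share does not by itself set SMAD6 apart. Shares for other such words, or for other close spacings such as that of the ID2 boxes, were not counted. The GC-rich motif GGCGCC, which reads the same on both strands and was in 16.4% of promoters, was in none of these 4 windows. Windows of the other members with an entry, ATOH8 and GREM1 were read in the same way. That of BMPR2 held 4 boxes and 1 GGCGCC, and that of ATOH8, a BMP target, held neither motif. These matches describe letters and were not tested for binding.

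Of the ligands, BMP2 (ENSG00000125845, chromosome 20, plus strand) encodes a secreted BMP known for inducing bone and cartilage. Its RPKM was 0.188, 0.154 and 0.198 in DMSO replicates 1 to 3 and 0.309, 0.317 and 0.381 in Nutlin-3 replicates 1 to 3. Every Nutlin-3 library lay above every DMSO library. The mean rose from 0.180 ± 0.0229 to 0.335 ± 0.0395 RPKM (SD, n = 3 per group), a log2 fold change of 0.64 (SE 0.097, limma adjusted p = 0.00526). These values rest on 58 to 100 reads per DMSO library and 123 to 146 per Nutlin-3 library. On the reads the log2 fold change was 0.88 (limma voom adjusted p = 3.22e-05). The pseudocount lowers the fold of genes at such low RPKM, and the value for BMP2 ran from 0.18 with a pseudocount of 1 to 0.86 with 0.01, each time past the threshold.

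BMP4 (ENSG00000125378, chromosome 14, minus strand), a close relative of BMP2, was read at 2.50, 2.75 and 2.95 RPKM in DMSO and at 2.86, 3.22 and 3.38 in Nutlin-3. The groups overlapped, since Nutlin-3 replicate 1 lay below DMSO replicate 3. The log2 difference was 0.20 with a 95% interval from -0.02 to 0.42 (limma adjusted p = 0.135). On the reads BMP4 passed, at 0.21 (limma voom adjusted p = 0.0154).

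Of the receptors, BMPR2 (ENSG00000204217, chromosome 2, plus strand) encodes the type II receptor kinase whose loss is known from heritable pulmonary arterial hypertension. It was at 0.644, 0.722 and 0.735 RPKM in DMSO and at 0.820, 0.817 and 0.790 in Nutlin-3, with DMSO replicate 1 the lowest and no overlap. The mean rose from 0.701 ± 0.0497 to 0.809 ± 0.0164, a log2 fold change of 0.19 (SE 0.053, limma adjusted p = 0.0416). This call was lost without DMSO replicate 2 or without any 1 of the Nutlin-3 libraries, with adjusted p between 0.0712 and 0.117. It was also lost without a filter on low values (adjusted p = 0.0771) and with median-of-ratios scaling (0.0642). On 4107 to 5583 reads per library the rise was 0.21 (limma voom adjusted p = 0.000661).

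BMPR1A (ENSG00000107779, chromosome 10, plus strand), a type I receptor for BMP2 and BMP4, showed values of 0.392, 0.417 and 0.405 RPKM in DMSO against 0.375, 0.361 and 0.367 in Nutlin-3. The groups did not overlap, and the Nutlin-3 mean was 90.8% of the DMSO mean. The log2 difference of -0.11 had a 95% interval from -0.20 to -0.02, and its adjusted p of 0.0606 (limma) missed the threshold. On 1964 to 2922 reads per library it passed, at -0.14 (limma voom adjusted p = 0.00718). The 2 receptors thus lay on opposite sides of their DMSO levels, BMPR2 at 115% and BMPR1A at 90.8%.

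SMAD5 (ENSG00000113658, chromosome 5, plus strand), which carries the signal to the nucleus, was close to its DMSO level. Its RPKM was 1.577, 1.563 and 1.517 in DMSO and 1.503, 1.497 and 1.518 in Nutlin-3, and Nutlin-3 replicate 3 lay just above DMSO replicate 3. The log2 difference was -0.04, with a 95% interval from -0.11 to 0.02 (limma adjusted p = 0.264), and on the reads it was -0.04 (limma voom adjusted p = 0.329). An antisense gene, SMAD5-AS1, lies opposite 6.75% of its exon length, and whether the authors counted by strand is not given in the sources used here.

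SMAD6 (ENSG00000137834, chromosome 15, plus strand), the inhibitory SMAD with the paired box in its promoter above, had the steadiest DMSO values, at 0.297, 0.302 and 0.292 RPKM. In Nutlin-3 it was at 0.142, 0.179 and 0.166, with replicate 1 the lowest, and every Nutlin-3 library was far below every DMSO library. The mean fell from 0.297 ± 0.00482 to 0.162 ± 0.0190 RPKM, a log2 fold change of -0.60 (SE 0.069, limma adjusted p = 0.00200). Between 717 and 1002 reads per DMSO library stood against 357 to 512 per Nutlin-3 library. On these reads the fall was 0.87 on the log2 scale (-0.87, limma voom adjusted p = 1.58e-08). Its size followed the pseudocount, from -0.16 at 1 to -0.84 at 0.01, and the call held at each.

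**Figure D2:**
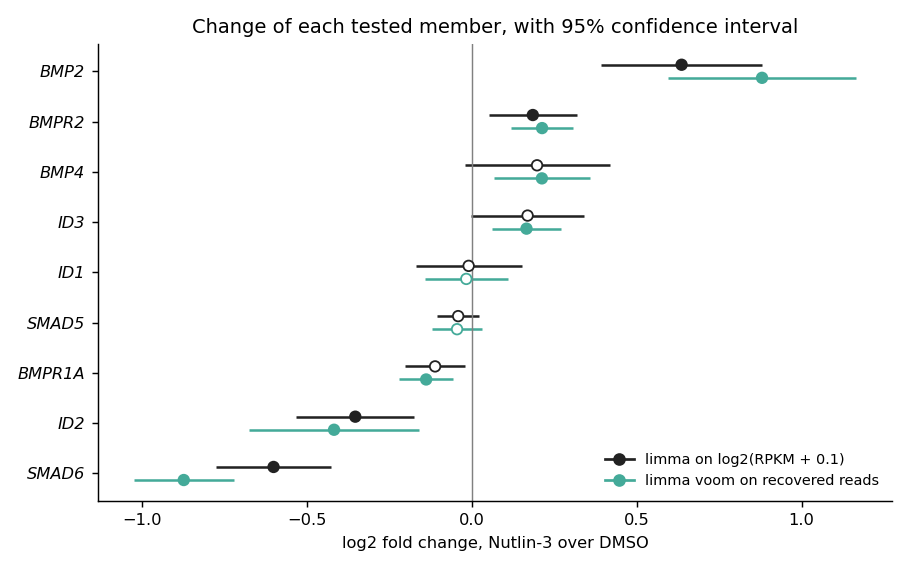
Log2 fold change of Nutlin-3 over DMSO (horizontal axis) for the 9 tested genes, from limma on log2(RPKM + 0.1) in black and from limma voom on recovered reads in green. Lines are 95% confidence intervals, and filled points have an adjusted p under 0.05. BMP2 and SMAD6 lie farthest from 0, on opposite sides, and BMP4, ID3 and BMPR1A are filled only on reads.

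The ID genes, the best-known targets of the pathway, did not move together. ID1 (ENSG00000125968, chromosome 20, plus strand) stayed within its spread, at 20.6, 18.8 and 21.1 RPKM in DMSO and 20.7, 18.7 and 20.8 in Nutlin-3. The 2 sets of values interleave. The log2 difference was -0.01, with a 95% interval from -0.17 to 0.15 (limma adjusted p = 0.929), so a change of the size seen for SMAD6 or BMP2 lies outside that interval. On the reads the difference was -0.02 (limma voom adjusted p = 0.846).

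ID3 (ENSG00000117318, chromosome 1, minus strand) was at 45.1, 40.3 and 45.3 RPKM in DMSO and at 46.7, 47.9 and 52.4 in Nutlin-3. All 3 Nutlin-3 libraries were above the DMSO libraries, by a narrow margin. Its mean came to 43.6 ± 2.83 with DMSO against 49.0 ± 3.00 with Nutlin-3, a log2 difference of 0.17 that did not pass (SE 0.067, limma adjusted p = 0.106). With quantile normalization it shrank to 0.05. On the reads the same 0.17 passed (limma voom adjusted p = 0.0105).

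ID2 (ENSG00000115738, chromosome 2, plus strand) was the ID gene that fell. It was at 0.666, 0.640 and 0.627 RPKM in DMSO and at 0.536, 0.483 and 0.434 in Nutlin-3, with no overlap. Its mean went from 0.645 ± 0.0200 to 0.484 ± 0.0511, or 75.1% of the DMSO level (log2 fold change -0.35, SE 0.071, limma adjusted p = 0.0136). The reads behind it were few, 107 to 158 per DMSO library and 74 to 97 per Nutlin-3 library, and gave -0.42 (limma voom adjusted p = 0.00854). The antisense gene ID2-AS1 shares 1.72% of its exon length.

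ID4 (ENSG00000172201, chromosome 6, plus strand) was not detectable at this depth. It had 1 read in DMSO replicate 2 and 0 in the other 5 libraries, and it entered neither test. A count of 0 allows up to 3 reads, which is 0.0215 to 0.0299 RPKM in the 5 libraries at 0. This limit covers counting error only.

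On the reads, 7 of the 9 genes were called, 4 rising and 3 falling, where 49.4% of 20882 genes were called, 25.6% as rising and 23.9% as falling. The directions of these 7 were those seen on RPKM. In 6 of the 9 tested genes the groups did not overlap in RPKM, as in 53.3% of all tested genes.

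Levels of different genes can be compared only per exon length, for which the recovered reads were divided by the merged exon length in GENCODE 29. Whether intronic reads were counted is not given in the sources used here. If they were, long genes such as BMPR2 and BMPR1A would stand too high. On this scale, in reads per kb of exon per M reads, ID3 was highest at 45.5 ± 2.96 in DMSO, followed by ID1 at 20.2 ± 1.22. BMPR2 (11.2 ± 0.796), SMAD5 (9.60 ± 0.194), BMP4 (8.01 ± 0.660) and BMPR1A (6.25 ± 0.190) formed a middle group. SMAD6 (2.77 ± 0.0449), ID2 (1.64 ± 0.0509) and BMP2 (0.631 ± 0.0801) followed, and ID4 was last at 1 read. The ID genes thus span the order, with ID3 and ID1 at the top and ID2 among the lowest.

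With Nutlin-3 the lower end closed up, while the middle group ran from 12.97 for BMPR2 down to 5.67 for BMPR1A. SMAD5 (9.31 ± 0.0658) and BMP4 (9.23 ± 0.792) did not differ beyond their spread. SMAD6 came to 1.51 ± 0.177, ID2 to 1.23 ± 0.130 and BMP2 to 1.17 ± 0.139, so that SMAD6 and ID2, and ID2 and BMP2, were neighbours within their spread. In DMSO the level of SMAD6 had stood well above that of BMP2.

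**Figure D3:**
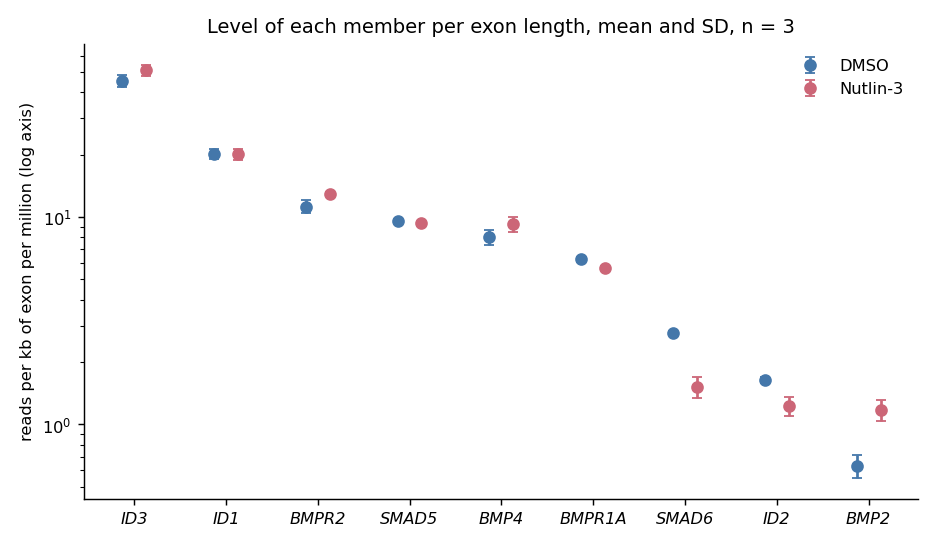
Level of 9 of the genes in reads per kb of exon per M reads (vertical log axis), in order of the DMSO mean. Points are means and bars SD over 3 libraries, DMSO in blue and Nutlin-3 in red, and where no bar shows it is smaller than the point. ID3 is highest at 45.5 in DMSO, and the gap between SMAD6 and BMP2 narrows from 2.77 against 0.631 in DMSO to 1.51 against 1.17 with Nutlin-3.

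The rest of the pathway was read from 7 lists of other BMP genes, of which 60 of 61 genes matched an ID and 31 averaged 0.1 RPKM or more. Of these 31, 10 rose, 6 fell and 15 did not pass, with a median log2 fold change of 0.07, where 20.9% of all tested genes rose and 18.4% fell. On RPKM all 10 rises were in the lists of extracellular antagonists and intracellular inhibitors, which held 9 and 8 of the 31 tested genes. On the reads 43 of these genes were tested, and 11 rose and 12 fell, so that rises no longer outnumbered falls. Over all genes tested on the reads 25.6% rose and 23.9% fell. The added rise was RGMB, a BMP co-receptor named after its values were seen, at 0.12 (limma voom adjusted p = 0.0340), and 45.7% of its exon length lies opposite other genes.

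Among other ligands, GDF6, a BMP-family growth factor of the eye and skeleton, was the single one of 11 matched that reached the filter. It averaged 3.56 RPKM in DMSO against 3.82 in Nutlin-3 (limma adjusted p = 0.156). BMP5, BMP10 and BMP15 were at 0 reads in every library. On the reads none of 6 tested ligands passed, where 49.4% of all genes so tested were called.

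Of 4 tested receptors and co-receptors outside the members, 1 fell and 3 did not pass, where 18.4% of all tested genes fell. ACVR2B, a type II receptor that BMPs share with activins, was at 0.204, 0.219 and 0.207 RPKM in DMSO and 0.151, 0.145 and 0.132 in Nutlin-3. Its mean fell to 68.1% of the DMSO level (log2 fold change -0.35, limma adjusted p = 0.00882), while the type II receptor BMPR2 rose.

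Of the other SMADs, SMAD4, the common partner, fell from 0.719 ± 0.0113 to 0.647 ± 0.0153 RPKM (log2 fold change -0.13, limma adjusted p = 0.0186). Leaving out DMSO replicate 1 or 3, or Nutlin-3 replicate 1 or 2, ended that call (adjusted p from 0.0529 to 0.0699). SMAD4 has 7.37% of its exon length in common with a gene on its strand. SMAD1 and SMAD9, the relatives of SMAD5, were chosen for naming after their values were seen. SMAD1 did not pass on RPKM (adjusted p = 0.125) and passed on the reads at -0.23 (limma voom adjusted p = 0.00987). SMAD9 was under the RPKM filter and fell on the reads, at -0.41 (limma voom adjusted p = 0.000736). SMAD5 was the 1 BMP-activated SMAD that passed neither test, and its difference from SMAD1 and SMAD9 was not tested.

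Extracellular antagonists, which bind BMPs or related ligands outside the cell, rose in 6 of 9 tested cases, and 1 fell and 2 did not pass, with a median log2 fold change of 0.29 (over all tested genes 20.9% rose and 18.4% fell). On the reads 6 of 11 tested rose, 1 fell and 4 did not pass, where 25.6% of all genes so tested rose and 23.9% fell. GREM1, which encodes the BMP2 and BMP4 antagonist gremlin, was at 24.2, 23.4 and 23.7 RPKM in DMSO and at 42.4, 41.7 and 41.8 in Nutlin-3. It rose to 1.76 times the DMSO level (log2 fold change 0.82, SE 0.022, limma adjusted p = 9.51e-05), beside 1.86 times for its ligand BMP2. FSTL3, a follistatin-like binder of activins and some BMPs, rose from 10.0 ± 0.179 to 17.9 ± 0.233 RPKM (log2 fold change 0.83, limma adjusted p = 9.63e-05). NBL1, another secreted BMP antagonist, fell from 0.432 ± 0.0320 to 0.316 ± 0.0306 RPKM (log2 fold change -0.36, limma adjusted p = 0.0159), a call just lost without Nutlin-3 replicate 2 (adjusted p = 0.0501). NBL1 shares 17.8% of its exon length with other genes on its strand, so its reads are uncertain. Named after their values were seen, CRIM1 (1.57 times), FSTL1 (1.24 times), CHRDL1 (1.24 times) and FST (1.12 times) were the other 4 that rose. The call of FST was lost without DMSO replicate 2 or 3 or Nutlin-3 replicate 1 or 3 (adjusted p from 0.0825 to 0.0929).

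Inhibitors inside the cell or at its membrane rose in 4 of 8 tested cases and none fell, against 20.9% and 18.4% of all tested genes. SMAD6, an inhibitor among the members, fell. BAMBI, a pseudoreceptor that blocks BMP and TGF-β receptors, was at 5.01, 5.26 and 5.44 RPKM in DMSO and at 7.56, 7.67 and 7.30 in Nutlin-3. Its rise was 0.51 on the log2 scale (limma adjusted p = 0.000591). FKBP1A, which encodes the FKBP12 protein that holds type I receptors inactive, rose from 13.1 ± 0.258 to 16.8 ± 0.628 RPKM (log2 fold change 0.36, limma adjusted p = 0.00130), with 9.51% of its exon length shared on its strand. SKIL and SMURF2, named after their values were seen, rose to 1.16 and 1.14 times their DMSO levels, and the SMURF2 call was lost without any 1 of the libraries except DMSO replicate 2 (adjusted p from 0.0670 to 0.0722). SMAD7, the nearest relative of SMAD6 and also named after its values were seen, was at 1.51 ± 0.0708 RPKM in DMSO and 1.53 ± 0.0326 in Nutlin-3 (limma adjusted p = 0.732).

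Of BMP target genes outside the members, 5 were tested, of which 2 fell, none rose and 3 did not pass, where 18.4% of all tested genes fell and 20.9% rose. ATOH8, a helix-loop-helix factor induced by BMP signalling, was at 1.44, 1.47 and 1.41 RPKM in DMSO and at 0.741, 0.806 and 0.873 in Nutlin-3. Its mean fell to 56.0% of the DMSO level (log2 fold change -0.77, limma adjusted p = 0.000555), next to 54.6% for SMAD6 and 75.1% for ID2. HEY1, a transcriptional repressor that also answers to Notch, fell from 0.242 ± 0.00767 to 0.160 ± 0.0366 RPKM (log2 fold change -0.41, limma adjusted p = 0.0403). Its reads were few, 28 to 38 per DMSO library and 15 to 23 per Nutlin-3 library. The HEY1 call depended on each library but Nutlin-3 replicate 3 (adjusted p from 0.0581 to 0.107 when left out), and it was lost without a filter (0.0753) and under quantile normalization (0.0684).

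Of 2 tested E proteins, the helix-loop-helix partners that ID proteins hold away from DNA, 1 fell and 1 did not pass. Over all tested genes 18.4% fell and 20.9% rose. TCF3, which encodes E12 and E47, was at 2.08, 1.96 and 2.15 RPKM in DMSO and at 1.44, 1.51 and 1.52 in Nutlin-3. It fell to 72.2% of its DMSO level (log2 fold change -0.44, limma adjusted p = 0.00126), near the 75.1% of ID2. TCF12 and TCF4, named after their values were seen, differed less. TCF12 did not pass on RPKM (limma adjusted p = 0.0583) and fell on the reads by 0.18 on the log2 scale (limma voom adjusted p = 0.000567). TCF4 was under the RPKM filter and also fell on the reads by 0.18 (limma voom adjusted p = 0.0125).

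**Figure D4:**
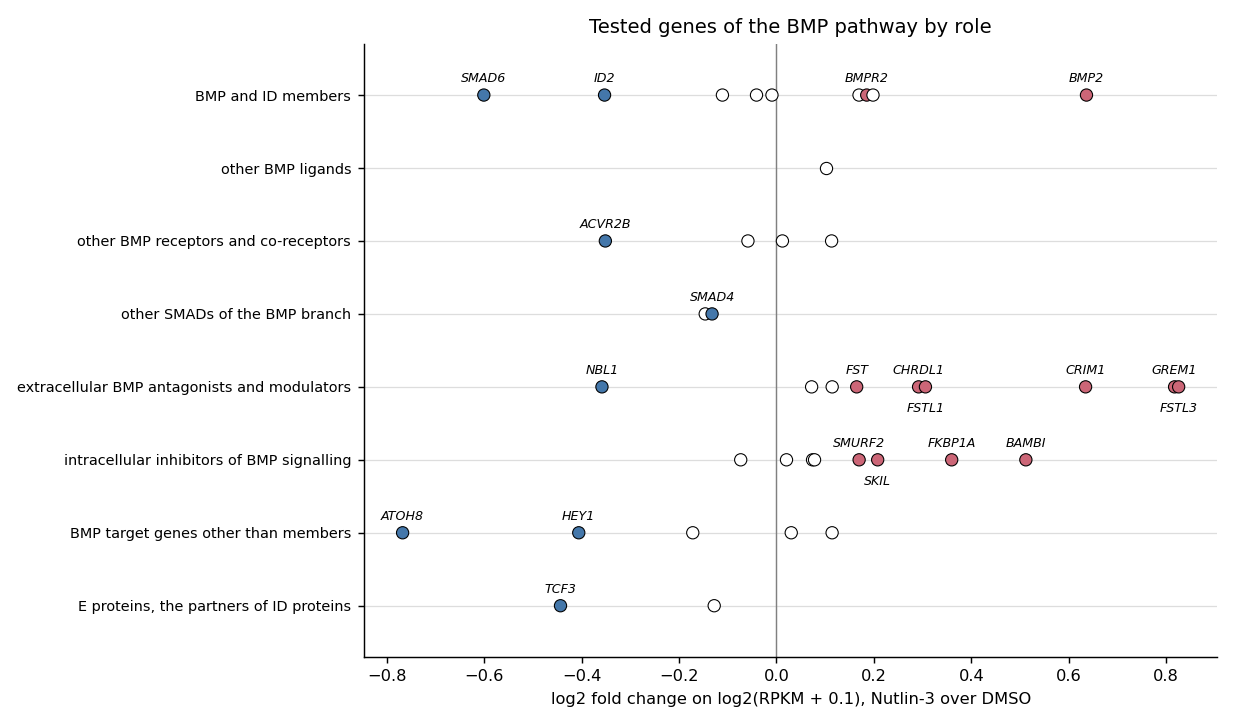
Log2 fold change of Nutlin-3 over DMSO on log2(RPKM + 0.1) (horizontal axis) for each tested gene of the BMP lists, in rows by role. Red points rose and blue points fell at an adjusted p under 0.05 (limma), and open points did not pass. The 10 rises outside the members lie in the 2 rows of antagonists and inhibitors, which hold 9 and 8 of the 31 tested genes outside the members. The targets and E proteins hold no rise. Of all tested genes 20.9% rose, and only 5 targets and 2 E proteins were tested.

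The genes whose pattern over the 6 libraries was most like that of BMP2 were sought among 8710 tested genes that averaged 1 RPKM or more. BMP2 had the largest log2 fold change of the members on RPKM, at 0.64, close to the -0.60 of SMAD6 in size. SMAD6 was the larger without DMSO replicate 2 (-0.59 against 0.57) or without Nutlin-3 replicate 3 (-0.61 against 0.56). Likeness was the root mean square difference of log2(RPKM + 0.1) values centred on the DMSO mean. The pseudocount lowers the change of BMP2 on this scale more than that of genes over 1 RPKM, so the genes named rose by a smaller ratio than its 1.86 times. NDUFAF8, an assembly factor of mitochondrial complex I, was nearest at 0.04 and went from 7.67 ± 0.742 to 12.02 ± 0.598 RPKM, 1.57 times its DMSO level. SERTAD1, a regulator of cyclin-dependent kinase 4 and E2F activity, followed at 0.06, from 1.83 ± 0.174 to 2.77 ± 0.232 RPKM. The third was TBILA, a long non-coding RNA, also at 0.06, from 1.08 ± 0.0876 to 1.66 ± 0.195 RPKM.

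The p53 response was present in the same libraries, with CDKN1A at 7.24 times and MDM2 at 3.66 times the DMSO level. Over all tested genes, principal component 1 (39.5% of the variance) set the groups apart. Of 10 retinal pigment epithelium markers, 7 had a mean under 0.1 RPKM, among them RPE65, TYR and TYRP1, and MITF, OTX2 and RDH5 were above it, so the label's tissue is marked only in part. RDH5 has 68.2% of its exon length in common with a read-through gene. The summed RPKM of these markers ran from 6.02 to 6.68 in DMSO and from 7.52 to 7.59 in Nutlin-3. Within it RDH5 rose from 2.93 to 4.62 RPKM, OTX2 fell from 3.18 to 2.60 (limma adjusted p = 0.0333) and MITF did not pass. The epithelial keratins KRT7, KRT8 and KRT18 rose to 1.32, 1.68 and 1.74 times their DMSO levels. KRT19 had 2 to 8 reads per library and was not tested. VIM, the mesenchymal gene of the same list, was at 474 ± 24.1 RPKM in DMSO and 445 ± 15.5 in Nutlin-3. It did not pass on RPKM (limma adjusted p = 0.197) and fell on the reads at -0.09 (limma voom adjusted p = 0.0480). The sum of 7 fibroblast markers, mostly THY1, ran from 49.4 to 49.7 RPKM in DMSO and from 66.0 to 67.4 in Nutlin-3. Endothelial and neural markers summed to at most 0.151 RPKM each in every library, with CDH5 at 0. RPKM by gene span keeps long genes low in all these sums and under the 0.1 RPKM filter. The endothelial marker KDR had 119 to 199 reads per library. Per kb of exon and M reads it stood at 0.740 ± 0.0222 in DMSO, beside 0.631 ± 0.0801 for BMP2. The 5 immune markers summed to 20.7 to 21.1 RPKM in DMSO and 24.6 to 27.2 in Nutlin-3, nearly all of it CD68, 81.7% of whose exon length is shared on its strand, and CD3E was at 0. The part of these markers in the changes of the BMP and ID genes was not tested.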

How the data were processed

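Libraries were stranded and made from poly(A) RNA, per the labels' protocols. The authors used TopHat2, edgeR, CASAVA 1.8.2 and the build hg19, per the submitters' processing notes, which give no role for each. The counter, the annotation and strand use in counting were not given in the sources used here. Values in the deposited table are RPKM made by the authors. With the gene span of GENCODE 29 as length, 90.3% of low values were whole reads within 0.01 read, against 33.2% with merged exons. Reads were recovered from spans for 27538 genes and from ratios between libraries for 8825, where a common factor cannot be seen. The library sizes behind the RPKM were 29.8 to 42.3 M. As a share of the recovered reads they were 0.987, 1.005 and 0.990 in DMSO and 0.941, 0.929 and 0.923 in Nutlin-3. RPKM thus stand higher for their reads in the Nutlin-3 libraries, a scaling tied to group that voom shares. A fit scaled by recovered reads alone was not run, and small changes may depend on it.

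The main test was limma 3.58.1 (R 4.3.3; eBayes with trend, no term but group) on log2(RPKM + 0.1) of genes averaging 0.1 RPKM or more, with p-values adjusted by Benjamini-Hochberg. limma voom took genes averaging 10 or more recovered reads and the authors' library sizes. Ratios and percentages of the DMSO level are of mean RPKM. Between replicates the chi-square of reads per gene was 1.92 to 5.13, and across groups 57.2 to 83.9. Each library counted as 1 replicate, and these values cannot show whether the libraries of a group came from separate cultures. The fit on RPKM and the recovery of reads were tested on simulated data, and the voom fit was not.

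Members and lists were chosen with earlier results of these data known, as were the pseudocount and filter of 0.1, which keep long genes. Named are all members, of each other BMP list up to 2 largest rises and 2 largest falls past the threshold or, where none passed, the gene with the highest RPKM, MDM2, CDKN1A and the 3 genes most like the member with the largest change. GENCODE 29 is on another build than the table, so it gave names, lengths and overlaps only. Promoters came from RefSeq (GRCh38.p14), which had entries for 9 of the members, not for BMP2. Alternatives were other pseudocounts, filters and scalings, robust eBayes, the replicate number as a block, voom and each library left out.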

Additional observations from a re-analysis of the deposited data

How the results depend on the processing

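BMP2, SMAD6 and ID2 kept their direction and stayed past the threshold in every alternative that tested them. A minimum mean of 0.5 RPKM left BMP2, SMAD6 and BMPR1A untested. With a pseudocount of 0.1 or 0.5, 2 members were then called, 1 rising and 1 falling. Of all genes tested under this filter 51.3% and 51.6% were called. limma voom called 7 of 9 tested members, 4 of them rising, where 49.4% of all genes so tested were called. With no filter or with median-of-ratios scaling 1 member rose, BMP2, where 20.8% and 40.0% of all tested genes were called in either direction. Leaving out 1 library in turn gave 1 to 2 rising members and 3 to 4 members in all. Of all genes it gave 5858 to 6644 (29.4% to 33.4%). The cause of these differences was not tested, other than the smaller number of genes tested under the stricter filter.

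Differences near 0 changed sign when 1 library was left out. ID1 ran from -0.0591 to 0.0389 and came to 0.01 without DMSO replicate 1, 0.02 without DMSO replicate 3 and 0.04 without Nutlin-3 replicate 2. Without DMSO replicate 1, ACVR1 came to -0.0247 and SMAD7 to -0.0043, and over the libraries left out their highest values were 0.0418 and 0.0559.

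Same-numbered libraries did not deviate together (r of -0.034, -0.0233 and -0.0134 across genes), and no library correlated best with its own number, so the numbers were not taken as pairs. With the replicate block 5520 genes were called instead of 7803. The members called stayed 4 in number, with BMP4 gained (adjusted p = 0.0266) and BMPR2 lost (adjusted p = 0.105). Of the other named genes followed here ACVR2B (0.0511), FST (0.0613), HEY1 (0.0663), SMURF2 (0.0700) and SMAD4 (0.0774) lost their calls, and no other call changed. The cell type markers, SMAD9 and TCF4 were not followed through the alternatives. Among the members depth limits ID4, ID2 and BMP2 most, and genes of low RPKM have fold changes that follow the pseudocount.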
